A study of Mus musculus with 35 samples.

Results

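The mitosis and spindle genes described here are 56 genes whose products enter, drive or complete cell division. They were chosen by name, as mitotic cyclins and kinases, checkpoint, spindle, kinetochore and cytokinesis genes. No value entered the rule, but earlier results of these data were known. All 56 were listed among the 11982 gene names of the expression table, and all 56 passed the filter on low values that left 11863 genes for testing. The RNA came from mouse bone marrow haematopoietic stem and progenitor cells (HSPCs), the immature cells from which the blood lineages arise. There were 2 libraries from wild-type (WT) mice and 2 from JMJD1B-/- mice, both on the strain 129P2xC57BL/6J. JMJD1B, encoded by Kdm3b, is a histone demethylase, and the mutant mice carry a gene trap, so the gene was lost in the whole animal and not in blood cells alone. The study used adult mice of both sexes and age-matched littermates as WT. The labels give no age for a library and no treatment other than the gene trap. The design text calls the libraries of a genotype biological replicates.

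At the entry into mitosis, CDK1 bound to cyclin A or cyclin B phosphorylates a wide range of proteins, condensins compact the chromosomes, and kinesins and Aurora and Polo kinases build the spindle. The spindle assembly checkpoint holds the anaphase-promoting complex (APC) in check until every kinetochore is attached. CDC20 then activates the APC, securin and cyclin B are destroyed, separase cuts cohesin, and the central spindle directs cytokinesis. Most of these genes are transcribed together in the G2 and M phases, and in bulk RNA their summed level is widely read as a sign of how many cells are dividing. HSPC preparations are a mixture of mostly quiescent stem cells and rapidly dividing progenitors. In such bulk samples, fewer cells of a type and less RNA per cell cannot be told apart.

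The promoters of the genes were examined first, because G2 and M genes are known for a short element near the start, the cell cycle genes homology region (CHR), which is bound by the DREAM and MYB-MuvB complexes, and for CCAAT boxes bound by NF-Y. RefSeq promoter windows of 250 bases before to 50 bases after a transcription start (build GRCm38.p6) were matched by symbol to 47 of the 56 genes and held 50 windows. A CHR motif, spelled TTTGAA or TTCGAA on either strand, was in 76% of the 50 windows, against 17.6% of 21263 windows of protein-coding genes and 14.5% of the windows of genes in the expression table. CCAAT on either strand was in 74%, against 38.2% and 38.5% of these backgrounds in the same order, and both motifs were in 66% against 7.11% and 6.21%. The E2F motifs TTTCGCGC, TTTGGCGC, TTTCCCGC and TTTGCCGC were together in 8% of the windows against 2.85% and 4.08%, and GGCGG was in 94% against 60.6% and 78%. GGCGG can overlap the GC-rich sequence of most promoters. These are matches of letters and were not tested.

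The stretches below are the 150 bases before the start of the most highly expressed gene of each role whose stretch held a CHR motif and overlapped no annotated gene. They are shown to let the shared layout be seen. Of the 10 roles, 4 gave such a stretch. CHR and CCAAT motifs on either strand are in capitals, so that TTCAAA and ATTGG are the same motifs read on the other strand, and each sequence runs 5′ to 3′ towards the start.
Kif11 (spindle motor, chr19:37376232-37376381, plus strand): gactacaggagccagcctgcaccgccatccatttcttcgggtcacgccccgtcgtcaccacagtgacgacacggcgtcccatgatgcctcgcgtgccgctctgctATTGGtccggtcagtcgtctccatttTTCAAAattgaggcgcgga
Cdk1 (mitotic kinase, chr10:69352913-69353062, minus strand): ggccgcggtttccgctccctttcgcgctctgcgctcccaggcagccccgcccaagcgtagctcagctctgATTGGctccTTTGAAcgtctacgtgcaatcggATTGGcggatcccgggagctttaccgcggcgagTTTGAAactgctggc
Ube2c (ubiquitin-conjugating enzyme of the APC, chr2:164769779-164769928, plus strand): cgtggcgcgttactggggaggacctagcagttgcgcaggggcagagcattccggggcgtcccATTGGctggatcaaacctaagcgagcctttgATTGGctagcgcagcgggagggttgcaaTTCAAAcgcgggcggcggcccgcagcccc
Smc2 (condensin subunit, chr4:52439071-52439220, plus strand): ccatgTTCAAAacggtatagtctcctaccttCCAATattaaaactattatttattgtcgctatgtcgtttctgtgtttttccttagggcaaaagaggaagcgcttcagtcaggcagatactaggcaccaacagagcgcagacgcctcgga
In Kif11, Cdk1 and Ube2c the CHR motif nearest to the start began 19, 15 and 29 bases before it, downstream of a CCAAT box. In Smc2 the CHR motif of this stretch began 145 bases before the start, and a CCAAT box lay downstream of it.

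Of the 38 windows with a CHR motif, 34 (89.5%) had their nearest one within 50 bases of the start, on either side, and the median first base of the nearest motif was 2.5 bases after the start. Over all 3746 protein-coding windows with the motif, 24.7% had it so close, and the median lay 121 bases before the start. Among other genes of the cell cycle, the share of windows with a CHR motif was 42.7% for 103 windows of other mitosis genes, 13.5% for 52 windows of DNA replication genes and 32% for 25 windows of G1 and S regulators. E2F motifs had the opposite order, at 30.8% of the replication windows and 10.7% of the windows of other mitosis genes.

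**Figure D1:**
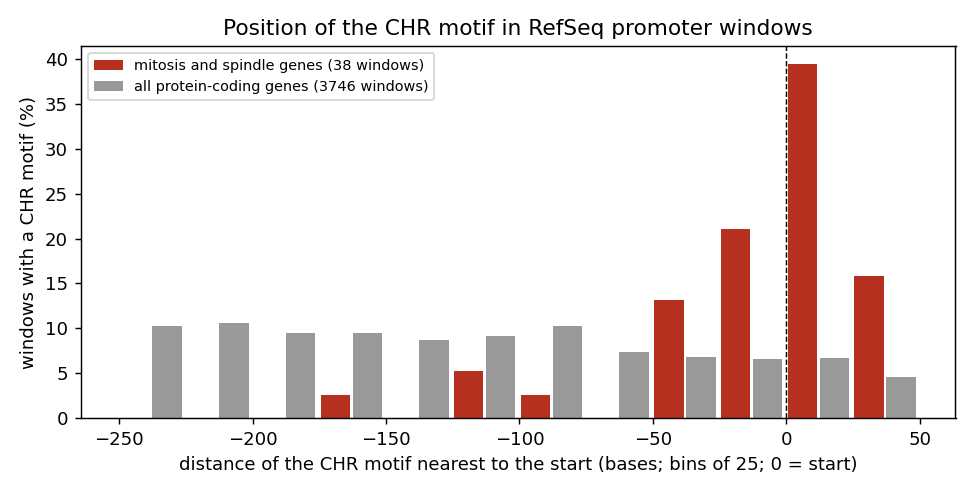
Position of the CHR motif nearest to the transcription start (x axis, bases from the start, bins of 25) in the promoter windows that hold one, as a percent of those windows (y axis), for the mitosis and spindle genes (red, 38 windows) and all protein-coding genes (grey, 3746 windows). The bin of the first 25 bases from the start held 39.47% of the red windows and 6.65% of the grey ones.

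The targeted gene was read first as a check of the labels. Values are RPKM, the reads of a gene scaled to its length in kilobases and to the mapped reads of the library. In WT, Kdm3b stood at 31.0 and 24.3 RPKM, and in JMJD1B-/- at 3.996 and 4.63 RPKM. Its log2 difference, JMJD1B-/- minus WT, was −2.65 (SE 0.24, limma, adjusted p = 0.0314), and reads of the trapped gene were thus still present. In limma without trend and in the gene-by-gene test, 0 genes passed an adjusted p of 0.05, so Kdm3b missed it there. Of the 56 genes, Cdc25c and Kif20a lie close to Kdm3b on chromosome 18, with 1 and 4 protein-coding genes between. The libraries were not alike in depth or in sex. The depth estimated from the steps between low values was 6100000 reads in JMJD1B-/- replicate 1 and 17500000 to 24600000 in the other libraries, and this replicate listed 156 entries at 0 against 43 to 53 elsewhere. WT replicate 2 had 332 RPKM of Xist, which did not exceed 0.051 RPKM elsewhere. The Y-linked Ddx3y, Eif2s3y, Kdm5d and Uty had 0.265 to 1.33 RPKM in it and 9.003 to 64.5 RPKM in the remaining 3 libraries. Of the 56 genes, Kif4 and Cenpi are X-linked. Kit, the receptor that marks progenitors, had 51.6 to 92.7 RPKM in all libraries, while the stem cell markers Procr and Ly6a had at most 2.96 RPKM.

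The 56 genes were well expressed in both genotypes. Their mean over the 4 libraries ran from 6.57 RPKM (Pttg1) to 248 RPKM (Mki67) with a median of 28.9 RPKM, and 53 of 56 lay above the median gene of the WT libraries. The lowest estimated depth behind a value was 21 reads per kilobase, for Cdc25c in JMJD1B-/- replicate 1. Summed over the 56 genes, the level came to 2118 and 2354 RPKM in WT, and to 2381 and 2426 RPKM in JMJD1B-/-. The sums did not overlap, but WT replicate 2 was closer to the JMJD1B-/- libraries than to WT replicate 1. Summed over all genes tested, the level was 394153 and 378979 RPKM in WT and 400467 and 443134 RPKM in JMJD1B-/-. These sums did not overlap either, and those of the 56 genes were not scaled to them. Over the 55 genes other than Mki67 the sums overlapped, at 1912 and 2110.5 RPKM in WT and 2088 and 2176 RPKM in JMJD1B-/-.

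The comparison between the genotypes asked whether the loss of JMJD1B moved the mitotic programme of HSPCs as a whole or single steps of it. By limma on log2(RPKM + 0.1), no gene of the 56 passed an adjusted p of 0.05 (Benjamini-Hochberg over 11863 genes), where 0.0421% of all genes, 5 genes, did, and their adjusted p ran from 0.424 to 0.995. At an unadjusted p under 0.05, 1 of 56 was higher in JMJD1B-/- (Ccna2), against 3.81% of all genes, and 1 of 56 was lower (Kif23), against 6.33% of all genes. These shares were below those over all genes. With quantile normalization the split was 2 higher and 1 lower, against 5.61% and 6.02% of all genes. With 1 library left out, the difference of Ccna2 on the log2 scale ran from 0.29 without WT replicate 1 to 0.57 without WT replicate 2. That of Kif23 ran from −0.61 to −0.47 in the same order. With 2 libraries a group, an exact permutation test of a single gene cannot go below p = 0.333, so that calls rest on the spread shared across genes by limma.

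The log2 differences were small. They ran from −0.54 (Kif23) to 0.50 (Ube2c), 40 of 56 were under 0.25 in size, and 37 of 56 were above 0 (66.1%, against 47% of all genes). Their SE had a median of 0.19 and reached 0.46, and for 54 of 56 genes the 95% interval lay within 1 of 0, that is, within a doubling in either direction. The median of the 56 differences was 0.10, against −0.025 over all genes tested, and it stayed above 0 whichever library was left out. It came to 0.033 when WT replicate 1 was dropped, 0.14 for WT replicate 2, 0.13 for JMJD1B-/- replicate 1 and 0.067 for JMJD1B-/- replicate 2. Dropping WT replicate 1 or JMJD1B-/- replicate 2 thus lowered it by more than 1.5 times. The median over all genes moved too, to 0.086 when JMJD1B-/- replicate 1 was dropped and to −0.10 for JMJD1B-/- replicate 2.

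For 19 of 56 genes (33.9%) the lower of the JMJD1B-/- values exceeded the higher of the WT values, as it did for 20.1% of all genes tested. For 4 of 56 (7.14%) both JMJD1B-/- values lay below WT, against 22.7% of all genes, and for the other 33 the genotypes overlapped. The 4 were Kif23, Racgap1, Ect2 and Cenpf. With quantile normalization the counts were 17 above and 8 below, against 24.9% and 21% of all genes. WT replicate 1 was the lowest library for 26 of 56 genes, and JMJD1B-/- replicate 2 was the highest for 24. Over all genes tested, the median of log2(RPKM + 0.1) minus each gene's mean was 0.0185 and 0.0182 in WT. It was −0.0873 and 0.094 in JMJD1B-/- replicates 1 and 2, so replicate 2 was the highest there too. With 1 library left out the condition of no overlap is looser, and so is its share over all genes. Without WT replicate 2, 32 of 56 lay above against 31.8% of all genes, and without JMJD1B-/- replicate 1, 34 of 56 lay above against 46.5%. With any 1 library left out, 8 to 15 lay below, against 31.9% to 49% of all genes.

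**Figure D2:**
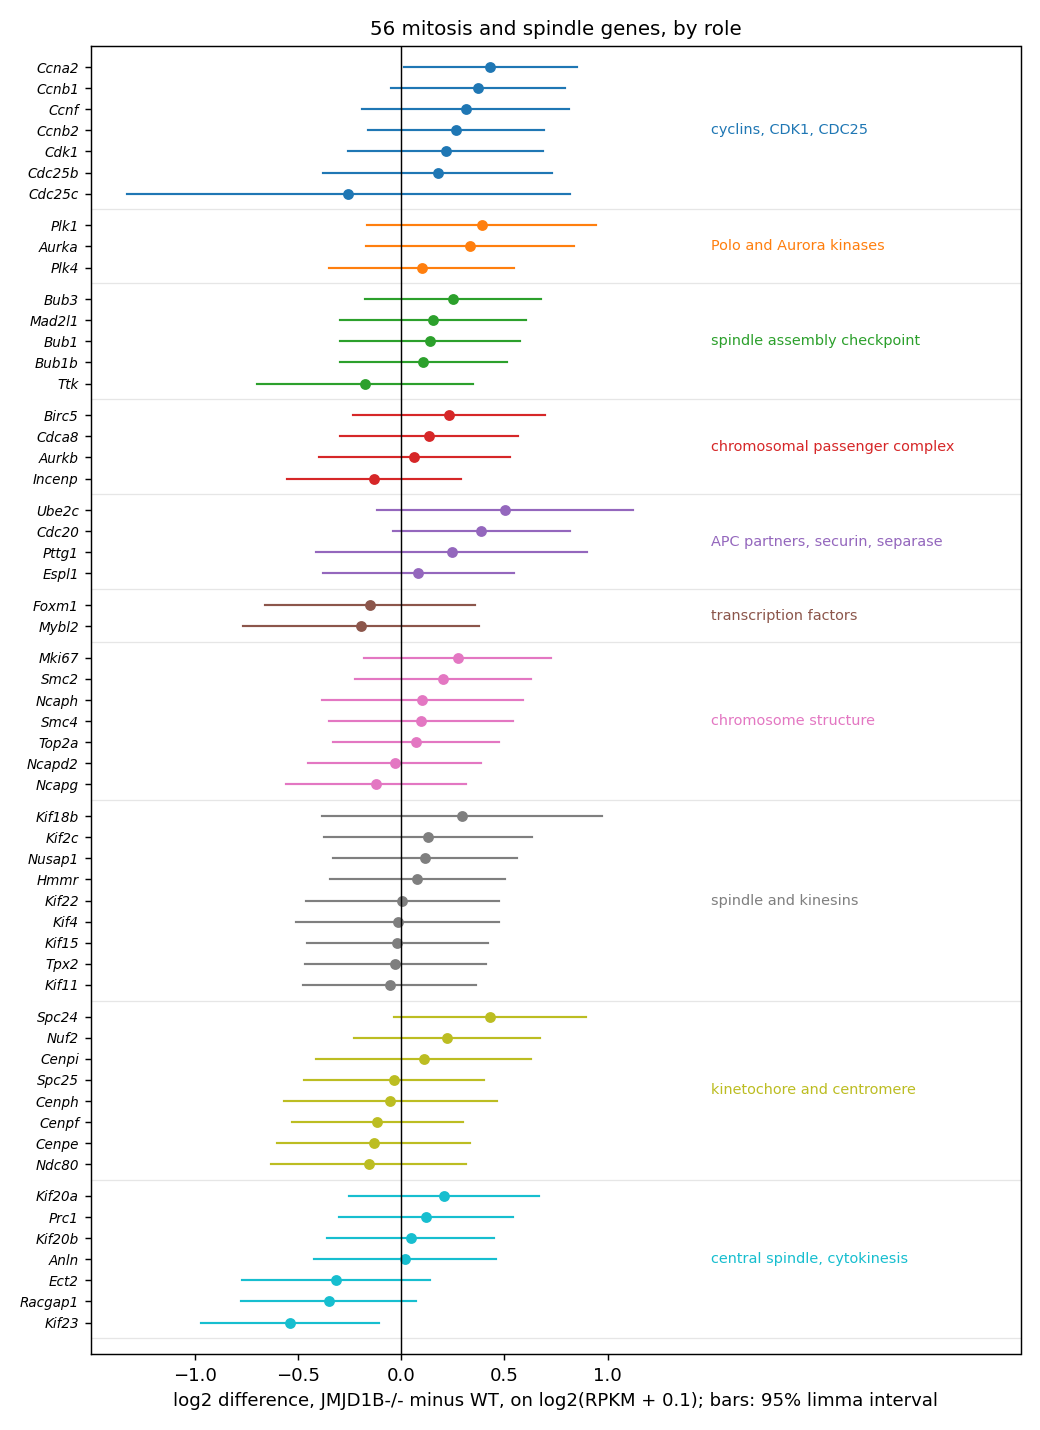
Log2 difference between JMJD1B-/- and WT (x axis, on log2(RPKM + 0.1)) for each of the 56 genes (y axis), grouped and coloured by role and ordered within a role; dots are limma estimates from 2 libraries a genotype and bars their 95% intervals. The intervals of Ccna2 and Kif23 exclude 0, and those of the other 54 genes include it.

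Of the 7 cyclins, CDK1 and its activating phosphatases, 6 had differences above 0, against 47% of all genes, and 4 lay above WT without overlap, against 20.1%. The roles hold 2 to 9 genes each, and no count of a role was tested against these shares or against another role. Ccna2, encoding cyclin A2, which partners CDK2 in S phase and CDK1 at mitotic entry, had 69.7 and 84.3 RPKM in WT and 104 and 103 RPKM in JMJD1B-/-. The genotypes did not overlap, and the replicates of JMJD1B-/- were nearly equal. The difference was 0.43 on the log2 scale, or 1.35-fold (SE 0.18, limma, adjusted p = 0.484). It did not pass the unadjusted threshold with any 1 of the 4 libraries left out, in limma without trend or in the gene-by-gene test. Ccnb1 and Ccnb2, the B cyclins that carry CDK1 into mitosis, had differences of 0.37 and 0.27, and Ccnf, an F-box cyclin that marks proteins for destruction in G2, had 0.31. None of these 3 genes overlapped between the genotypes, but none passed the test. Cdk1 itself had 26.2 and 33.0 RPKM in WT and 32.0 and 36.5 RPKM in JMJD1B-/-, with overlap. Its difference of 0.22 came to 0.051 without WT replicate 1 and 0.38 without WT replicate 2. Cdc25c, a phosphatase that activates CDK1 and the nearer neighbour of Kdm3b, had 7.24 and 6.64 RPKM in WT against 3.46 and 9.64 RPKM in JMJD1B-/-. Its JMJD1B-/- libraries lay on either side of the WT libraries, with the largest gap between replicates of a genotype among the 56 genes, 1.45 on the log2 scale. Its difference of −0.26 turned to 0.47 without JMJD1B-/- replicate 1 and came to −0.98 without JMJD1B-/- replicate 2.

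The 3 Polo and Aurora kinases of the centrosomes and spindle poles all had differences above 0, and 2 lay above WT without overlap, against 20.1% of all genes. Plk1, which drives centrosome maturation and mitotic entry, had 14.6 and 17.1 RPKM in WT and 17.5 and 24.5 RPKM in JMJD1B-/-. The genotypes did not overlap, but JMJD1B-/- replicate 1 lay near WT replicate 2. The difference was 0.39 (SE 0.24, limma, adjusted p = 0.621), but it rested on JMJD1B-/- replicate 2. Without that library it was 0.15, and without JMJD1B-/- replicate 1 it was 0.63 and passed the unadjusted threshold. Aurka, the Aurora kinase of the spindle poles, had a difference of 0.33 without overlap. Plk4, the kinase that starts centriole duplication, had 21.7 and 25.2 RPKM in WT and 24.96 and 25.2 RPKM in JMJD1B-/-, and overlapped.

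In the spindle assembly checkpoint, Bub1, Bub1b and Bub3, 3 of 5 genes, lay above WT without overlap, against 20.1% of all genes, and Mad2l1 and Ttk overlapped. Bub1b, the most highly expressed and the gene of the checkpoint protein BUBR1, had 44.5 and 48.8 RPKM in WT and 50.96 and 49.5 RPKM in JMJD1B-/-. Bub3, its partner at kinetochores, had 31.2 and 36.4 RPKM in WT and 39.9 and 40.4 RPKM in JMJD1B-/-. The differences were 0.11 (SE 0.17) and 0.25 (SE 0.18), within the error of the test for both genes, and came to 0.043 and 0.14 without WT replicate 1 and to 0.17 and 0.36 without WT replicate 2. Ttk, the kinase that starts checkpoint signalling, had the only difference below 0 in this role, −0.17 (SE 0.22).

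Of the 4 genes of the chromosomal passenger complex, which corrects wrong attachments and later acts at the midzone, Birc5 and Cdca8 lay above WT without overlap, against 20.1% of all genes. Birc5, encoding survivin, had 21.1 and 26.1 RPKM in WT and 28.1 and 27.0 RPKM in JMJD1B-/- (difference 0.23, SE 0.20). Incenp, the scaffold and the most highly expressed subunit, had 59.7 and 71.4 RPKM in WT and 60.99 and 58.3 RPKM in JMJD1B-/- (difference −0.13, SE 0.18). Without WT replicate 1, Birc5 came to 0.081 and Incenp to −0.26, and without WT replicate 2 they came to 0.39 and −0.0024. The subunits of this complex thus had differences of both signs, and none passed the test.

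The 4 genes of the APC partners, securin and separase all had differences above 0, against 47% of all genes, and 2 lay above WT without overlap, against 20.1%. Ube2c, which supplies ubiquitin to the APC and was the most highly expressed of the 4, had 22.7 and 29.1 RPKM in WT and 28.9 and 46.0 RPKM in JMJD1B-/-. The genotypes overlapped, since JMJD1B-/- replicate 1 was just under WT replicate 2. Its difference of 0.50 was the highest of the 56 but had an SE of 0.26 (limma, adjusted p = 0.575). With JMJD1B-/- replicate 2 dropped it came to 0.17, and with JMJD1B-/- replicate 1 dropped to 0.84, when it passed the unadjusted threshold. Cdc20, the activator of the APC at anaphase, had a difference of 0.39 (SE 0.18) without overlap. Espl1, encoding separase, had 0.084 without overlap, and Pttg1, encoding securin, had 0.25 with overlap.

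Foxm1 and Mybl2 are transcription factors of the G2 and M programme, the second a part of the MYB-MuvB complex that binds CHR promoters. Both had differences below 0 and overlapped. Mybl2 had 19.9 and 22.3 RPKM in WT and 15.1 and 22.4 RPKM in JMJD1B-/- (difference −0.20, SE 0.24), so that 1 JMJD1B-/- library was the lowest and the other the highest of the 4. The difference turned to 0.089 without JMJD1B-/- replicate 1 and came to −0.48 without JMJD1B-/- replicate 2. Foxm1 had a difference of −0.15 (SE 0.22). Split by the promoter motif, the 35 genes with a CHR motif had a median difference of 0.084 (from −0.54 to 0.50). The 12 with a window and no such motif had 0.11 (from −0.20 to 0.37), and the 9 without a window had 0.064. In the same order, 13, 3 and 3 genes lay above WT without overlap, against 20.1% of all genes. Below WT lay 4, 0 and 0 genes, against 22.7% of all genes. The groups were not tested against each other.

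The 7 chromosome structure genes included the most highly expressed of the 56. Mki67, encoding the Ki-67 antigen that coats mitotic chromosomes and marks proliferating cells, had 206 and 244 RPKM in WT and 293 and 250 RPKM in JMJD1B-/-. The genotypes did not overlap, but WT replicate 2 and JMJD1B-/- replicate 2 were close, and the difference of 0.27 (SE 0.19, limma, adjusted p = 0.665) did not pass the test. It was 0.086 with quantile normalization, and 0.15 and 0.16 without WT replicate 1 and JMJD1B-/- replicate 1. Top2a, the topoisomerase that disentangles sister chromatids, had 194 and 205 RPKM in WT and 212 and 207 RPKM in JMJD1B-/-, a difference of 0.071 that turned to −0.08 with quantile normalization. The 5 condensin genes had differences from −0.12 (Ncapg) to 0.20 (Smc2). Of these only Smc2 did not overlap and lay above WT, against 20.1% of all genes.

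None of the 9 spindle proteins and spindle kinesins was free of overlap between the genotypes, where 20.1% of all genes lay above WT and 22.7% below. Their median difference was 0.0054. Kif11, the motor that pushes the spindle poles apart, had 71.7 and 70.1 RPKM in WT and 74.8 and 62.3 RPKM in JMJD1B-/-. Kif18b, a kinesin that shortens astral microtubules, had 9.52 and 8.49 RPKM in WT and 8.68 and 14.1 RPKM in JMJD1B-/-. Its difference of 0.30 (SE 0.29) came from JMJD1B-/- replicate 2, and was −0.050 without that library. Tpx2, Kif15, Kif4 and Kif22 had differences within 0.03 of 0.

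The 8 kinetochore and centromere genes had a median difference of −0.043. Spc24, a subunit of the NDC80 complex that grips microtubules, had 17.0 and 20.4 RPKM in WT and 25.4 and 24.8 RPKM in JMJD1B-/-. The genotypes did not overlap, and the difference was 0.43 (SE 0.20, limma, adjusted p = 0.515). It was 0.30 without WT replicate 1, and it passed the unadjusted threshold with quantile normalization. Of the other subunits of the same complex, Nuf2 also lay above WT without overlap, with 34.1 and 33.2 RPKM in WT and 43.8 and 35.2 RPKM in JMJD1B-/- (difference 0.22). Without JMJD1B-/- replicate 1 the Nuf2 difference fell to 0.063, and without JMJD1B-/- replicate 2 it was 0.38. Spc25 and Ndc80 overlapped, with differences of −0.034 and −0.16. These differences were not tested against each other. Cenpe, the kinesin that carries chromosomes to the spindle equator and the most highly expressed of the 8, had 37.3 and 47.4 RPKM in WT and 41.0 and 35.7 RPKM in JMJD1B-/-, with overlap.

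Of the 7 central spindle and cytokinesis genes, 3 lay below WT in both JMJD1B-/- libraries, against 22.7% of all genes, and 1 lay above, against 20.1%. Kif23, the kinesin of the centralspindlin complex that bundles the midzone, had 29.9 and 32.9 RPKM in WT and 21.3 and 21.9 RPKM in JMJD1B-/-. Its replicates lay close together within each genotype and the genotypes were well apart. The difference was −0.54, 1.45 times as high in WT (SE 0.18, 95% interval −0.97 to −0.11, limma, adjusted p = 0.424). It kept its sign under every alternative run, from −0.61 to −0.47, but did not pass the unadjusted threshold without WT replicate 1, without WT replicate 2 or in limma without trend. Racgap1, the other subunit of centralspindlin, had 29.8 and 31.2 RPKM in WT and 24.2 and 23.5 RPKM in JMJD1B-/-. Ect2, the exchange factor that centralspindlin recruits to activate RhoA, had 22.7 and 24.3 RPKM in WT and 17.7 and 20.2 RPKM in JMJD1B-/-. Both were lower in both JMJD1B-/- libraries, with differences of −0.35 (SE 0.18, limma, adjusted p = 0.570) and −0.32 (SE 0.20, limma, adjusted p = 0.624), and did not pass the test. Their values are given because both proteins act with Kif23, a choice made after the values were seen. Kif20b, a kinesin of late cytokinesis and the most highly expressed of the 7, had 45.1 and 47.6 RPKM in WT and 49.6 and 46.1 RPKM in JMJD1B-/-. Prc1 and Anln, a midzone bundler and a scaffold of the contractile ring, overlapped, with differences of 0.12 and 0.019, and Kif20a, the other neighbour of Kdm3b, had 0.21 without overlap.

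**Figure D3:**
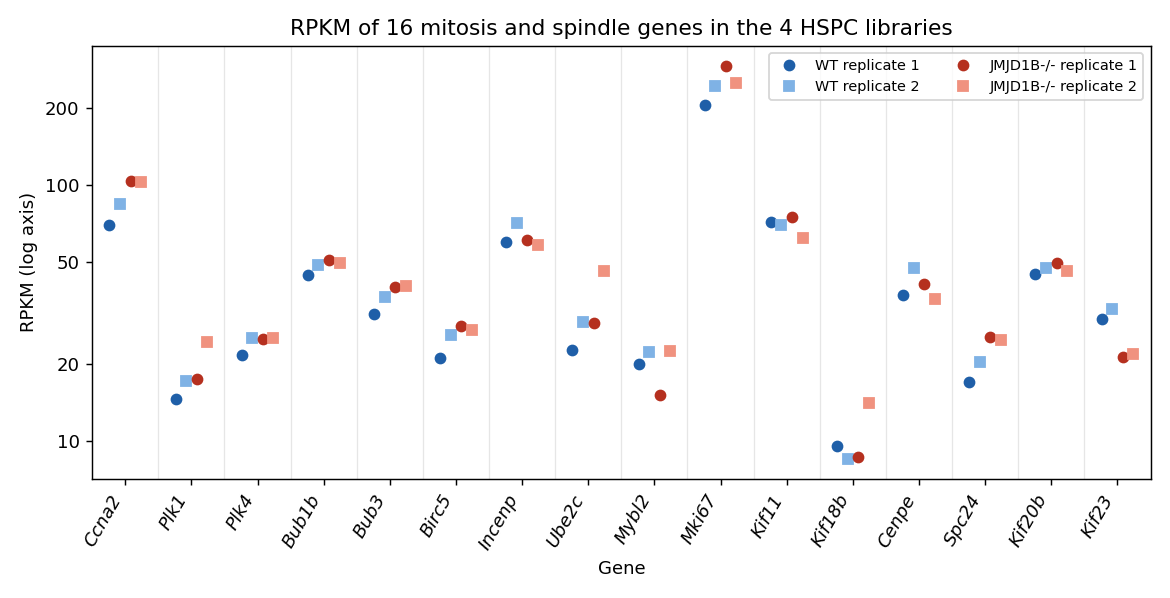
RPKM (y axis, log scale) of 16 mitosis and spindle genes (x axis) in WT replicates 1 and 2 (blue) and JMJD1B-/- replicates 1 and 2 (red), 1 point a library. Ccna2 and Spc24 lie higher and Kif23 lower in both JMJD1B-/- libraries, and the points of Kif11, Kif20b and Cenpe are mixed.

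The other genes of the cell cycle were read for comparison. Of 114 other mitosis genes tested, 3 were higher and 2 lower at an unadjusted p under 0.05, against 3.81% and 6.33% of all genes, none passed the adjusted threshold, and the median difference was −0.0011. Cep55, a midbody protein needed for abscission, had 22.5 and 18.7 RPKM in WT and 11.7 and 8.22 RPKM in JMJD1B-/-, a difference of −1.06 (SE 0.25, adjusted p = 0.258, limma). Depdc1b, a further gene of the mitotic programme, had 22.2 and 19.6 RPKM in WT and 11.6 and 14.2 RPKM in JMJD1B-/- (difference −0.70, SE 0.22). Both were below WT without overlap. Neither passed the unadjusted threshold without WT replicate 1 or in the gene-by-gene test, nor did Depdc1b without WT replicate 2. In limma, Cep55 passed the adjusted threshold without JMJD1B-/- replicate 1 (adjusted p = 0.00907), and Depdc1b did without JMJD1B-/- replicate 2 (adjusted p = 0.0477). In these fits 630 and 669 of all genes passed it. Cks2, a small subunit of CDK complexes, had 35.7 and 43.5 RPKM in WT and 56.04 and 61.02 RPKM in JMJD1B-/-. Ube2s, which extends the ubiquitin chains of the APC, had 49.97 and 45.02 RPKM in WT and 64.4 and 74.6 RPKM in JMJD1B-/-. These 2 genes were higher by 0.57 (SE 0.19) and 0.55 (SE 0.18) without overlap. Both missed the unadjusted threshold without WT replicate 1, as Ube2s did without WT replicate 2. Both also missed it in limma without trend, which called 0 of the other mitosis genes higher, against 2.92% of all genes.

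Of 53 DNA replication genes, 8 were higher and none lower at an unadjusted p under 0.05, against 3.81% and 6.33% of all genes. Of the 53, 27 lay above WT without overlap (50.9%, against 20.1% of all genes) and none below (against 22.7%). Their median difference was 0.25, higher than the 0.10 of the mitosis and spindle genes, though the 2 lists were not tested against each other. The 4 of lowest p were Rrm2, a subunit of ribonucleotide reductase, at 0.81 (SE 0.22), the origin recognition genes Orc5 at 0.67 (SE 0.19) and Orc2 at 0.59 (SE 0.19), and Mcm5, of the replicative helicase, at 0.50 (SE 0.18), with adjusted p from 0.320 to 0.425 by limma. Without WT replicate 1 none of the 53 was called, against 1.04% of all genes higher in that fit, and the median was 0.084. The count was 5 without JMJD1B-/- replicate 2, against 6.13% of all genes, and 3 in both limma without trend and the gene-by-gene test, against 2.92% and 2.93%. Of 24 G1 and S regulators, 2 were higher and none lower, against the same 3.81% and 6.33%, with a median of 0.084. Dropping JMJD1B-/- replicate 2 brought this median to 0.048 and dropping JMJD1B-/- replicate 1 to 0.15. It was 0.084 without WT replicate 1 and 0.10 without WT replicate 2. Ccne1, encoding the cyclin of the G1 to S transition, had 19.4 and 26.3 RPKM in WT and 43.6 and 48.7 RPKM in JMJD1B-/-, a difference of 1.03 (SE 0.21, adjusted p = 0.204, limma). E2f2, an E2F transcription factor, had a difference of 0.78 (SE 0.24) and missed the unadjusted threshold without either WT replicate.

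Markers of blood cell types moved far more than the mitosis genes, and their part in the differences above was not tested. Of 15 erythroid genes tested, 13 were higher at an unadjusted p under 0.05 and none lower, against 3.81% and 6.33% of all genes, with a median log2 difference of 1.32, and their summed level was 910 and 1310 RPKM in WT and 2385 and 3611 RPKM in JMJD1B-/-. WT replicate 1, the lowest library for the mitosis genes in sum, was also the lowest in the erythroid sum, and JMJD1B-/- replicate 2 was the highest in both. In the sum over all genes tested, JMJD1B-/- replicate 2 was the highest too, at 443134 RPKM, and WT replicate 2 the lowest, at 378979 RPKM. Of 11 megakaryocyte genes 8 were lower, with sums of 777 and 728 RPKM in WT and 318 and 442 RPKM in JMJD1B-/-. Of 9 basophil and mast cell genes 8 were lower, with sums of 515 and 590 RPKM against 118 and 51.5 RPKM. Of 11 granulocyte genes 7 were lower and 2 higher (median −1.37), of 10 monocyte and macrophage genes 4 were lower, and of 15 HSPC markers 6 were lower, among them Cd34 and Flt3, and 1 higher (Gfi1b). The summed T and NK cell genes were 102 RPKM in JMJD1B-/- replicate 1 and 22.9 to 42.8 RPKM elsewhere. B cell genes summed to at most 5.8 RPKM in any library, and stromal and endothelial genes to at most 78.6 RPKM.

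**Figure D4:**
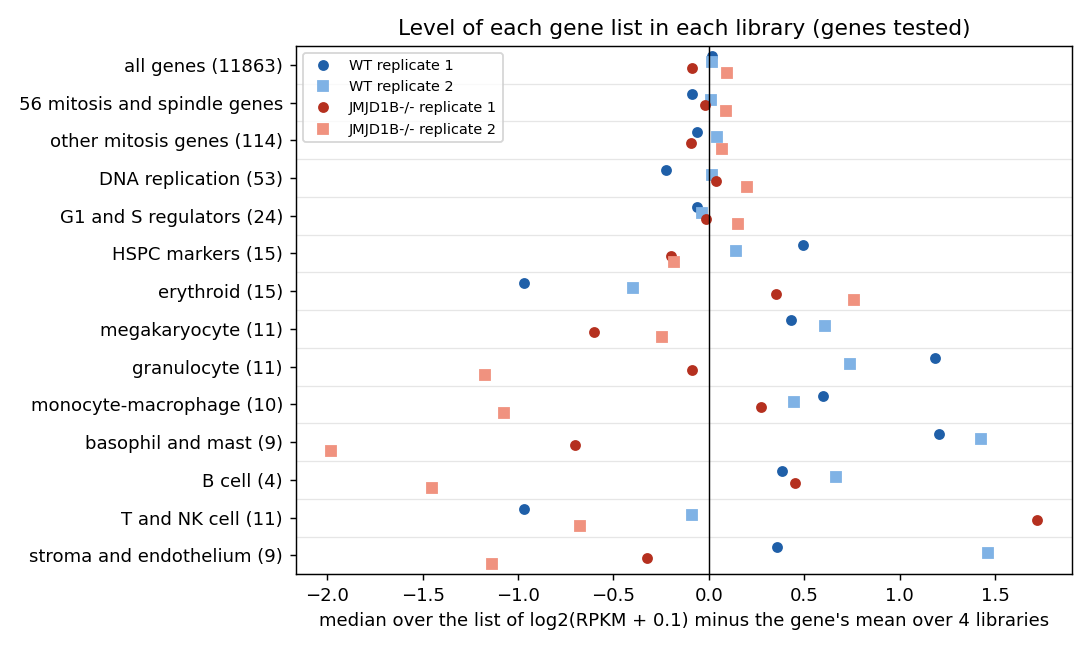
Median over each gene list (y axis, genes tested in parentheses) of log2(RPKM + 0.1) after subtracting each gene's mean over the 4 libraries (x axis), in WT (blue) and JMJD1B-/- (red). For the 56 mitosis and spindle genes the points lie between −0.090 and 0.090, and for the erythroid list between −0.97 and 0.76.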

How the data were processed

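HSPC RNA from 2 WT and 2 JMJD1B-/- samples was compared. The labels give polyadenylated RNA, Qiagen RNeasy micro extraction and TruSeq RNA V2 libraries; the submitters' processing notes name TopHat2, Novoalign and mm9 without saying which step used which. The deposited values are RPKM plus 1, per gene name, as the authors computed them, and 1 was subtracted. Entries sharing a name were averaged. Counts were not used here, so no count test was run, and depth was estimated from the ratios of low values and RefSeq gene lengths. The lengths of 21 of 119 genes fitted the chosen scale, against 4 for the next best.

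The 11863 genes averaging at least 0.5 RPKM entered limma (version 3.58.1, R 4.3.3; lmFit, then eBayes with a trend, no replicate term) as log2(RPKM + 0.1). Tests were two-sided, with Benjamini-Hochberg adjustment over all these genes, and the fit was tested on simulated data. The fold changes on this scale understate those of low genes. The gene-by-gene alternative assumes equal variances, and leaving out a library leaves 1 sample in a group, which is then assumed to vary as the other group does. Intervals are at 95%.

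The 56 genes and all other lists were chosen with earlier results of these data known. Values in 4 libraries are given for genes with an unadjusted p under 0.05 and, in each role, for the gene of highest mean RPKM and that of largest difference. Those of Cdk1, Cdc25c, Top2a, Nuf2, Racgap1 and Ect2 are given too, chosen for their roles after the values were seen, and further genes are named for their role. From the other cell cycle lists, up to 4 genes of lowest p were named. Promoters were joined by symbol to GRCm38.p6 RefSeq tables, and no coordinates of the authors' build were used.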

Additional observations from a re-analysis of the deposited data

How the results depend on the processing

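The precision is set by 2 libraries a genotype, with a median SE of 0.19, and the smallest difference called among the 56 genes was 0.43 in size. JMJD1B-/- replicate 1 had the least depth. Pseudocounts of 1 and 0.01, no filter and a mean of at least 1 RPKM changed no call of the 22 members given in every library, of Kdm3b or of the named genes of the other cell cycle lists, and moved no count of these lists by more than 1.5 times. The median of the 56 genes was above 0 under every alternative run. For the marker lists and for genes named only by a difference, the alternatives are not given here. Limma without trend called 0 of the 56 genes in either direction, 0 other mitosis genes higher and 3 replication genes higher, against 2.92% of all genes higher and 6.47% lower. The gene-by-gene test called 1 of the 56 higher and 2 lower, 1 other mitosis gene and 3 replication genes higher, against 2.93% and 4.32% of all genes. With quantile normalization 2 of the 56 were higher and 8 lay below WT without overlap, and Kif20b turned to −0.008 and Top2a to −0.0805. Over all genes, 5 passed the adjusted threshold, and 18 did with a pseudocount of 1, 3 with 0.01 or a mean of at least 1 RPKM, 1 with either scaling, and 0 in limma without trend and the gene-by-gene test. The cause of these changes was not tested. Kdm3b was −2.63 with median-ratio scaling, −2.59 with quantile normalization and −2.65 in limma without trend and in the gene-by-gene test, where it missed the adjusted threshold (adjusted p over its alternatives from 1.08e-06 to 0.796).

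With 1 library left out at a time, 0 to 5 of the 56 genes were called higher and 0 to 3 lower, against 1.04% to 10.6% and 1.49% to 15.3% of all genes in the same fits. Of the 56, 23 to 34 lay above WT, against 28.8% to 46.5% of all genes, and 8 to 15 below, against 31.9% to 49%. Their median ran from 0.033 to 0.14. Of the other mitosis genes 0 to 6 were higher and 0 to 9 lower, with 0 in either direction without WT replicate 1, and 9 lower, against 15.3% of all genes, without JMJD1B-/- replicate 2. Their median ran from −0.099 to 0.079. Of the replication genes 0 to 11 were higher and 28 to 44 lay above WT, with a median from 0.084 to 0.38. Of the G1 and S regulators 1 to 5 were higher and 0 to 2 lower, with a median from 0.048 to 0.15. Genes that changed sign, all with differences not called in the full fit, were Cdc25c (−0.982 to 0.47), Plk4 (−0.0065 to 0.21), Mybl2 (−0.48 to 0.089), Kif11 (−0.19 to 0.077), Kif18b (−0.050 to 0.64), Cenpe (−0.31 to 0.039) and Kif20b (−0.0067 to 0.098). Kdm3b ran from −2.82 to −2.47 and missed the adjusted threshold without either WT replicate. At the adjusted threshold, which 630 and 669 of all genes passed without JMJD1B-/- replicates 1 and 2, Cep55 and Orc5 (adjusted p = 0.0335, limma) passed without the first, Depdc1b without the second and Ccne1 without either (adjusted p = 0.0182 and 0.0377, limma).

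With the replicate number as a replicate block, 2 of the 56 genes were higher, Ccna2 and Ube2c, and 1 was lower, Kif23, against 4.81% and 7.7% of all genes. At an adjusted p under 0.05 the block called 256 genes, against 5 without it, among them Ccne1 (adjusted p = 0.00349, limma), Cep55 (0.0178) and Rrm2 (0.024) of the other cell cycle lists. The labels number the libraries but do not pair them, so the block joins them by number alone. The deviations of the same-numbered libraries from their group means had a correlation of −0.054 across genes. With 2 libraries a group, this value cannot tell whether same-numbered libraries shared a litter or a batch.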
